A study of Homo sapiens with 4 samples.

Results

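Semaphorins, plexins, neuropilins, ephrins and Eph receptors are the ligands and receptors through which growing axons, vessels and migrating cells are attracted or repelled. The 53 genes described here were taken from a fixed list of these families, out of 20136 protein-coding genes on the annotation. They comprise 20 semaphorins, of which 7 belong to class 3, 9 plexins, 2 neuropilins, 14 Eph receptors and 8 ephrins. For each gene, FOXC1 peaks were counted when their summit, the point of highest read pileup, lay in the gene body or within 20 kb of either end. This stretch is called the window.

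The study examined drug resistance in bladder cancer and mapped where the forkhead transcription factor FOXC1 binds chromatin. The cells were J82, an established human bladder cancer cell line cultured in DMEM with 10% FBS, with no further treatment named in the labels. The 4 libraries were 2 biological replicates of chromatin immunoprecipitation with sequencing (ChIP-seq), in which anti-FOXC1 (D8A6) was the antibody, and 2 input libraries that had none. Reads were single-end and 75 bp long, and the peak lists of the 2 ChIP replicates were analysed here. All values therefore describe 1 cell line under 1 condition, and no group of cells could be compared with another. The lists hold no expression values, so neither the cell type nor the transcription of these genes was checked.

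Class 3 semaphorins are secreted and signal through a neuropilin joined to a plexin, whereas most other semaphorins are anchored in the membrane and bind plexins directly. Ephrin-A ligands are tethered to the membrane by a lipid anchor and ephrin-B ligands span it, and both bind Eph receptor tyrosine kinases on the neighbouring cell, with signals passing in both directions. In epithelia and in tumors these families are known for their part in cell adhesion, cell sorting, migration and vessel growth.

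The reference sequences below lie under 5 of the strongest summits, at places 1 to 4 and 8 among the guidance regions. Places 5 to 7, at PLXNA4, EFNA5 and NRP2, held no match and are not shown. The sequences printed therefore hold matches more often than the guidance regions do. Each runs 101 bp on the plus strand of hg19, centred on the summit of a region called in both replicates. Capitals mark a match to the forkhead sequences GTAAACA or GTAAATA or ATAAACA or ATAAATA on either strand, or to the AP-1 sequence TGAGTCA or TGACTCA. The 2 AP-1 spellings are the same site read on opposite strands and were counted once. The first NRP1 stretch is chr10:33553310-33553410 and the second is chr10:33580222-33580322, in introns 3 and 2. The SEMA5A stretch is chr5:9348837-9348937 in intron 3, the SEMA3A stretch is chr7:83654993-83655093 in intron 6 and the EFNA5 stretch is chr5:106805458-106805558 in intron 1. Both NRP1 stretches held an AP-1 match and no forkhead match, SEMA5A held GTAAACA, SEMA3A held a forkhead match on both strands, and EFNA5 held neither.
NRP1 intron 3: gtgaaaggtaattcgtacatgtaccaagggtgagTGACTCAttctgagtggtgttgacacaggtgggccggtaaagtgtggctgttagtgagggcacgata
NRP1 intron 2: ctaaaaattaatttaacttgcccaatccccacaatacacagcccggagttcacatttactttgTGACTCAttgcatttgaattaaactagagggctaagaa
SEMA5A intron 3: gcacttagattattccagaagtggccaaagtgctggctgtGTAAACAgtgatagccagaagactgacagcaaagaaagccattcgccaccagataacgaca
SEMA3A intron 6: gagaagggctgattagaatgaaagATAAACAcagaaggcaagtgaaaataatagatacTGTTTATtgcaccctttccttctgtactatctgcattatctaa
EFNA5 intron 1: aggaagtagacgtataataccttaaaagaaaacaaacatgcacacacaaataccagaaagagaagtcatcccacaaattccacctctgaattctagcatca

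The replicate 1 list held 22405 peaks and the replicate 2 list 41789, with a median fold enrichment over background of 3.02 and 3.63. Worked back from the peak values, about 43200000 and 41500000 ChIP reads had been used, with a median of 18 and 23 reads over a summit. Peaks of the 2 lists that overlapped by at least 1 bp were merged into 13238 shared regions. Fold enrichment was higher in replicate 2 at 91.9% of them.

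FOXC1 regions shared by the replicates lay in the windows of 22 of the 53 guidance genes, or 41.5%. Among all protein-coding genes the share was 33%. Guidance genes are long, with a median window of 85.9 kb against 67.2 kb over all genes, and a longer window can hold more regions. Within classes of window length, shared regions lay at 2 of 15 guidance genes under 60 kb (19.3% of all genes), at 2 of 15 from 60 to 100 kb (29.9%), at 6 of 8 from 100 to 200 kb (48.9%) and at 12 of 15 of 200 kb and over (69.7%). The counts thus lay below the background in both shorter classes and above it in both longer ones, on at most 15 genes a class. The 41.5% beside 33% is not matched for length and is not read as an excess. Shared regions inside the gene body alone were found at 20 guidance genes, or 37.7%, where the background was 20%. This background is not matched for length, and the median gene body was 45.9 kb against 27.2 kb over all genes. When both replicates had to reach a −log10 q of 5, the count was 12 guidance genes, beside 20.2% of all genes. No test was made of these counts, because the lists are 2 in number and neighbouring peaks are not independent.

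Replicate 1 had 89 peaks in the guidance windows, at 27 genes, where 47% of all genes had one. Replicate 2 had 195 peaks at 43 genes, against 66.2% of all genes. Of these, 55 peaks in each list overlapped to form 55 shared regions, which is 61.8% of the replicate 1 peaks (Wilson 95% interval 51.4 to 71.2%) and 28.2% of the replicate 2 peaks (22.4 to 34.9%). Over the whole lists the shares were 59.6% and 31.7%. The intervals cover counting error only. The density came to 0.565 shared regions per 100 kb of guidance window, beside 0.529 over the windows of all protein-coding genes and 0.428 over the genome. The median density over the 53 genes was 0 per 100 kb, as it was over all genes, since most windows held no shared region.

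**Figure D1:**
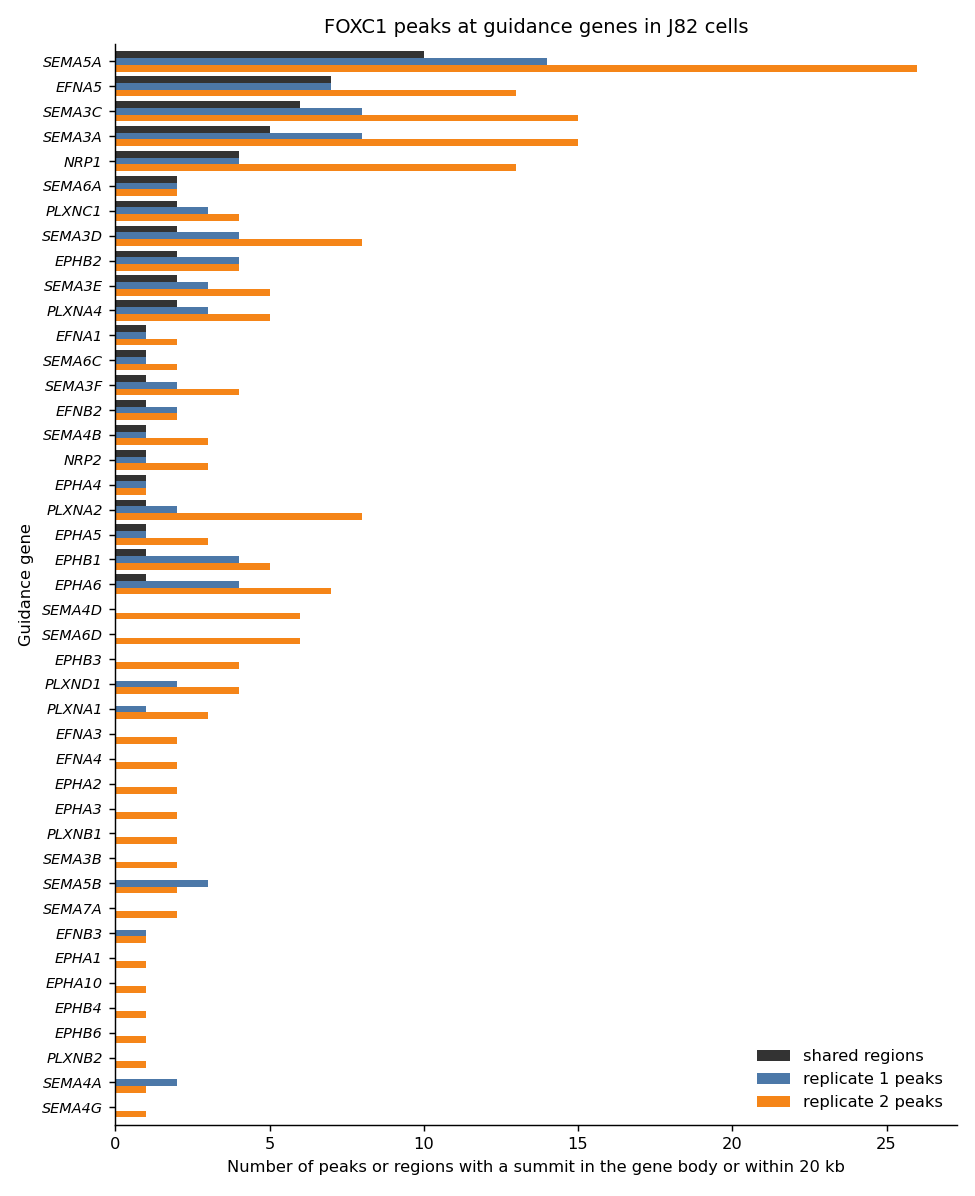
Peaks of replicate 1 (blue), peaks of replicate 2 (orange) and shared regions (dark) with a summit in the window of each guidance gene with at least 1 peak, ordered by shared regions. SEMA5A, EFNA5, SEMA3C, SEMA3A and NRP1 stand at the top with 4 to 10 shared regions, and 21 of the 43 genes have peaks but no shared region.

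Shared regions were concentrated at a few genes. SEMA5A, EFNA5, SEMA3C, SEMA3A and NRP1 held 32 of the 55, or 58.2%, in 19.3% of the guidance window length. These 5 genes were picked for their counts, so their density of 1.70 per 100 kb against 0.293 over the other 48 is a description. The other 17 genes with a shared region ranged from 0.101 per 100 kb at EPHA6 to 2.13 at EFNA1, whose short window held 1 region. In the plot of density against window length most guidance genes lie among other genes of like length.

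**Figure D2:**
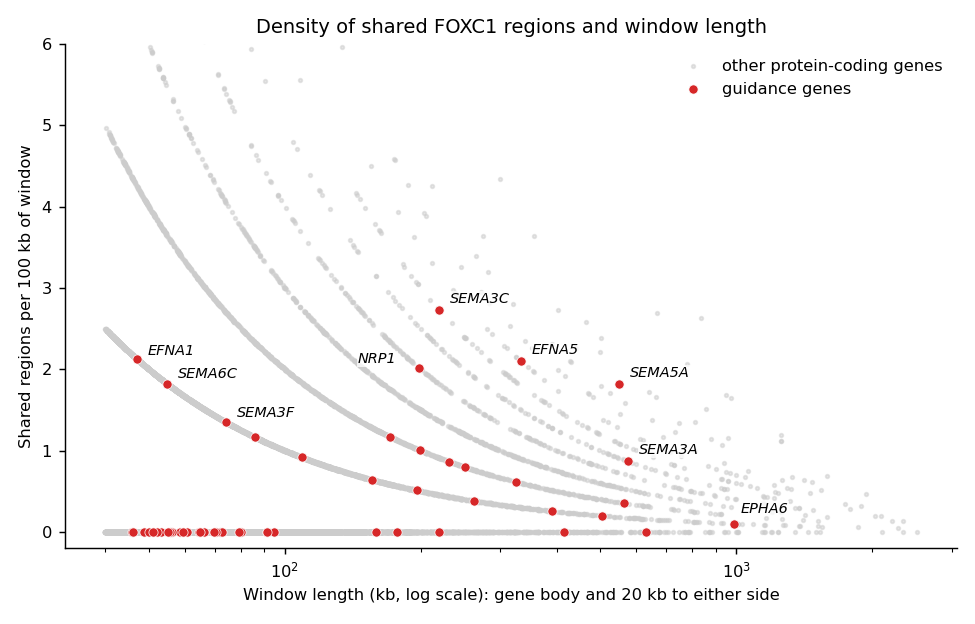
Shared regions per 100 kb against window length in kb (log scale) for guidance genes (red) and all other protein-coding genes (grey). The curves are windows with equal numbers of regions, and 51 other genes above 6 per 100 kb lie outside the axis. SEMA3C is the highest guidance gene at 2.73 per 100 kb, and 31 guidance genes lie at 0.

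Among the secreted class 3 semaphorins, 5 of 7 genes had a shared region, 16 regions in all or 1.05 per 100 kb. The share of genes was 71.4%, and their windows had a median length of 220 kb, a length at which 69.7% of all genes had one. The windows of SEMA3B, SEMA3F and SEMA3G were shorter. They fell in length classes where 19.3% (SEMA3B and SEMA3G) and 29.9% (SEMA3F) of all genes had a shared region. The background of 69.7% is therefore not matched gene by gene, and the share is not read against it. The 4 genes on chromosome 7, SEMA3C, SEMA3E, SEMA3A and SEMA3D, held 15 of the 16. SEMA3C, whose product binds both neuropilins, had 8 replicate 1 peaks, 15 replicate 2 peaks and 6 shared regions. Only 0.987% of genes with windows of 200 kb and over reached its density of 2.73 per 100 kb. Its shared regions ranged from 2.89 to 4.07 in fold enrichment in replicate 1 and from 2.54 to 11.4 in replicate 2, with reads over the summit of 14 to 32 and 18 to 67. SEMA3A, a repellent of axons that acts through NRP1 and A-type plexins, had 8 and 15 peaks and 5 shared regions, all in introns and spread over 387 kb. Among them, 1 lay 218061 bp upstream of the canonical start, in an intron outside the canonical transcript. The SEMA3A density of 0.867 per 100 kb was reached by 24.8% of genes in its length class. The strongest, at chr7:83654555-83655252 in intron 6, was enriched 5.62-fold in replicate 1 and 11.99-fold in replicate 2 (8.80 ± 4.51, SD, n = 2), from 28 and 63 reads.

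SEMA3D had 4 and 8 peaks and 2 shared regions, one with fold enrichments of 4.38 and 11.6 in intron 1 and the other with 4.23 and 9.09 in intron 18. SEMA3E, which binds PLXND1 without needing a neuropilin, had 3 and 5 peaks and 2 shared regions. The stronger, chr7:83097403-83098079 in intron 3, reached 5.10 and 11.1 (8.07 ± 4.21, SD, n = 2), and the other, at 2.90 and 2.87, was the lowest in order of all 55 regions. The remaining members were sparse. SEMA3F, a ligand of NRP2, had 1 shared region at 2.94 and 3.24, SEMA3B had 2 peaks in replicate 2 alone, and SEMA3G had none.

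Of the 13 other semaphorins, 4 had a shared region (30.8%, against 29.9% of all genes near their median window of 79.2 kb), and SEMA5A held 10 of their 14. Their windows ran from 51.0 to 630 kb, so this background is not matched gene by gene. SEMA5A encodes a transmembrane semaphorin with thrombospondin repeats. It had 14 replicate 1 peaks and 26 replicate 2 peaks in a window of 551 kb, or 1.81 shared regions per 100 kb, a density reached by 5.53% of genes in its length class. The 10 regions spanned 504 kb from an intron 1 site 7334 bp past the canonical start to a site just beyond the 3′ end, and 4 of them passed a −log10 q of 5 in both replicates. Summits of 2 of the 10, in intron 1, lay 824 bp apart and were counted separately. The strongest, chr5:9348434-9349254 in intron 3, had fold enrichments of 12.3 and 26.2 (19.2 ± 9.89, SD, n = 2), from 100 and 169 reads, and stood 549th among the 13238 shared regions. A further 3 were among the 15 best of the guidance genes. They had 4.84 and 9.73 at chr5:9456321-9457032 in intron 1, 5.63 and 7.14 at chr5:9149783-9150444 in intron 12, and 3.85 and 7.63 at chr5:9034724-9035204 downstream of the gene. In each of these the replicate 2 value was the higher, and the strongest region alone exceeded 10 in both replicates.

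SEMA6A, a transmembrane ligand of plexins A2 and A4, had 2 peaks in each replicate and both were shared, at 3.30 and 9.40 in a site 8663 bp upstream and at 3.10 and 3.29 in intron 1. SEMA4B had 1 shared region upstream, at 2.88 and 7.63. SEMA6C had 1 at 3.29 and 3.06. SEMA4D, the ligand of PLXNB1, had 6 peaks in replicate 2 and 0 in replicate 1, and SEMA6D likewise had 6 and 0. The strongest SEMA6D peak reached a fold enrichment of 7.70 from 50 reads, the highest of any guidance peak seen in replicate 2 alone.

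Plexins, the signal-transducing receptors of semaphorins, had shared regions at 3 of 9 genes, with 5 regions and 0.341 per 100 kb. The share of genes, 33.3%, stood beside 29.9% of all genes near their median window of 91.5 kb. With windows from 55.2 to 565 kb, this background is not matched gene by gene. PLXNA4 had 3 and 5 peaks and 2 shared regions. One, chr7:131800922-131801567 downstream of the gene, reached 8.52 and 15.04 (11.8 ± 4.61, SD, n = 2) from 43 and 78 reads, and the other, in intron 28, had 3.49 and 3.44. PLXNC1, the receptor of SEMA7A, had 2 shared regions in introns 2 and 4, at 2.82 and 7.98 and at 3.64 and 5.93. PLXNA2 had 8 replicate 2 peaks, of which 1 was shared with replicate 1, at 2.83 and 3.37. PLXND1 and PLXNA1 had peaks of both replicates with none overlapping, and the strongest at PLXND1 was a replicate 2 peak of 5.92 lying 3277 bp upstream.

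Both neuropilins had shared regions, and the strongest region of all 53 genes lay in NRP1, the co-receptor of class 3 semaphorins and of vascular endothelial growth factor. This region, chr10:33552801-33553814, had fold enrichments of 21.2 and 33.7 (27.5 ± 8.81, SD, n = 2), from 211 and 297 reads, and stood 173rd of 13238. Its summits in the replicates were 2 bp apart, and it lay 70235 bp from the canonical start of NRP1 but 728 bp from the start of another NRP1 transcript. A second NRP1 region, chr10:33579328-33580698, reached 9.81 and 17.3 (13.6 ± 5.29, SD, n = 2). The remaining pair of NRP1 regions were weaker, at 3.88 and 4.62 and at 3.82 and 4.18. All 4 replicate 1 peaks at NRP1 were shared, while 9 of its 13 replicate 2 peaks were not. NRP2 had 1 shared region, chr2:206596099-206596554 in intron 7, at 6.58 and 11.2 (8.91 ± 3.29, SD, n = 2). All 5 neuropilin regions passed a −log10 q of 5 in both replicates, compared with 25 of the 55 regions at all guidance genes and 50.8% of shared regions genome-wide.

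**Figure D3:**
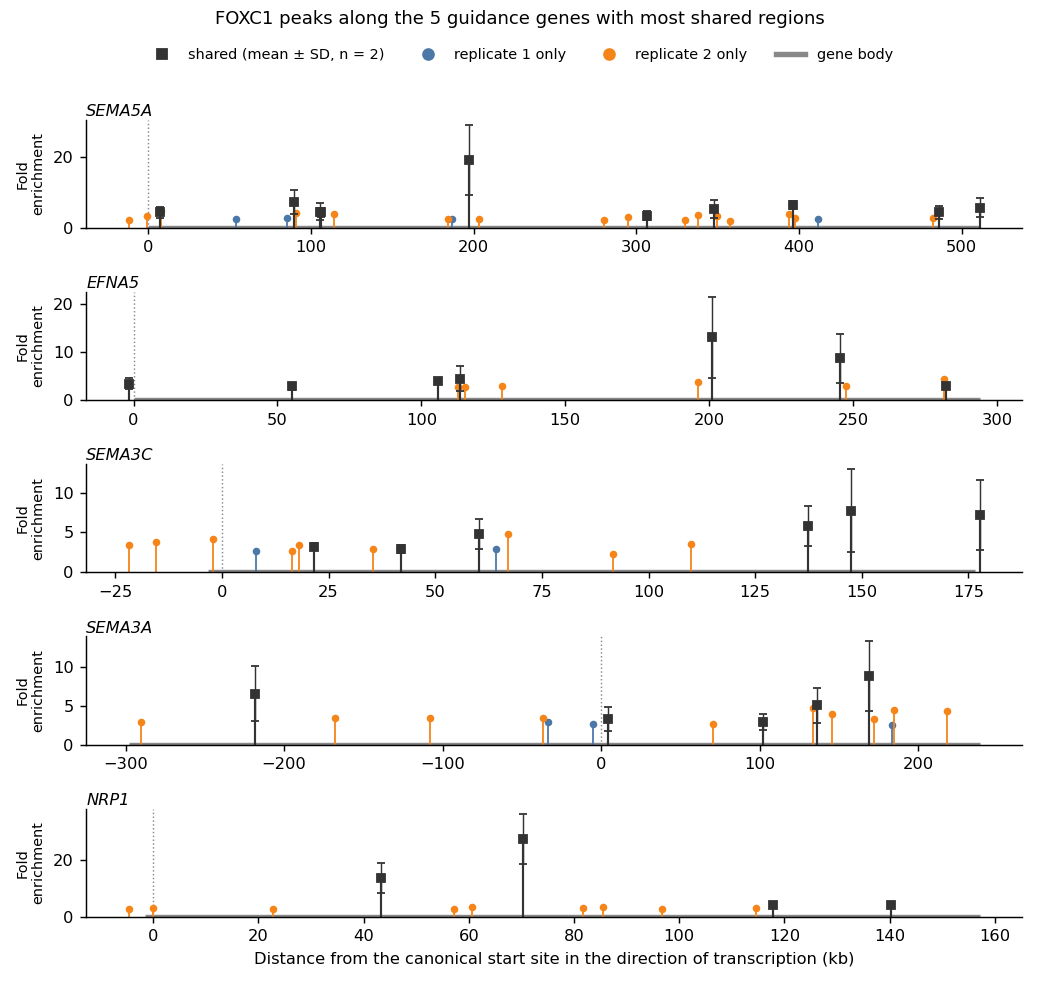
Fold enrichment of each peak against the distance of its summit from the canonical start site in kb for the 5 genes with most shared regions. Dark squares are shared regions (mean ± SD of 2 replicates), blue and orange points are peaks of replicate 1 or replicate 2 alone, and grey bars are gene bodies. The tallest squares, at 27.5 in NRP1 and 19.2 in SEMA5A, lie 70235 bp and 197300 bp into the genes.

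Eph receptors had the lowest density of shared regions. EphA genes had 3 regions at 3 of 9 genes, 0.120 per 100 kb, and EphB genes had 3 regions at 2 of 5 genes, 0.320 per 100 kb, compared with 0.529 over all genes. The median EphA window was 196 kb, and 48.9% of all genes of that length class had a shared region. EphA windows ran from 58.6 to 987 kb, so this background is not matched gene by gene. The EPHA5 region, chr4:66367600-66368577 in intron 3, had 8.13 and 10.3 (9.21 ± 1.53, SD, n = 2) from 41 and 53 reads. EPHA4 and EPHA6 each had 1, at 3.68 and 6.87 and at 3.29 and 5.45, and the EPHA6 window of 987 kb was the longest of all. EPHB2 had 2 shared regions in intron 1 that lay 2897 bp apart. The stronger, chr1:23073805-23074356, had 5.23 and 13.7 (9.47 ± 5.9996, SD, n = 2), and the other had 4.45 and 7.25. EPHB1 had 1 shared region at 2.88 and 4.58, while 3 of its replicate 1 peaks and 4 of its replicate 2 peaks stood alone. EPHA2, a receptor of EFNA1, had 2 peaks in replicate 2 only, of 4.01 and 3.09.

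Among the ephrin-A ligands, EFNA5 held 7 of the 8 shared regions. Its 7 replicate 1 peaks were all shared, and 6 of its 13 replicate 2 peaks were not. The density of 2.10 per 100 kb was reached by 3.31% of genes with windows of 200 kb and over. The strongest region, chr5:106805178-106805898 in intron 1, had 7.08 and 19.0 (13.0 ± 8.42, SD, n = 2) from 57 and 139 reads. The next, chr5:106760874-106761836 in intron 2, had 5.06 and 12.3 (8.68 ± 5.12, SD, n = 2). The other 5 lay between 2.31 and 4.08 in replicate 1 and between 2.64 and 6.28 in replicate 2, and 1 of them was 1622 bp upstream of the canonical start. EFNA1 had 1 shared region at 3.10 and 4.77, lying 1124 bp upstream of its start. EFNA3 and EFNA4, neighbours on chromosome 1 with overlapping windows, shared the same 2 replicate 2 peaks, the stronger of 5.15 lying 488 bp upstream of EFNA3. Of the ephrin-B ligands EFNB2, a ligand of EPHB4 in vessels, had 1 shared region, chr13:107165245-107165813 in intron 1, at 3.08 and 4.66 (3.87 ± 1.12, SD, n = 2).

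Genes outside these 22 fell into 3 sets. Peaks of both replicates that never overlapped were present at 5 genes, PLXND1, PLXNA1, SEMA5B, EFNB3 and SEMA4A. Replicate 2 peaks without any replicate 1 peak were present at 16 genes, and the converse at 0. Over all protein-coding genes, 47% had a replicate 1 peak and 66.2% a replicate 2 peak. The share of all genes in each of these sets was not computed, so the counts are not read as a trait of guidance genes. No peak of either replicate lay in the windows of 10 genes, EFNA2, EFNB1, EPHA7, EPHA8, PLXNA3, PLXNB3, SEMA3G, SEMA4C, SEMA4F and SEMA6B. Of all protein-coding genes, 29.4% had no peak. The windows of these 10 were short, with a median of 57.5 kb, but that of EPHA7 was 220 kb. A gene without a listed peak may still carry binding too weak to be called at this depth. Replicate 2 had more peaks than replicate 1 at 36 genes, the numbers were equal at 5, and SEMA5B and SEMA4A alone had more in replicate 1.

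Peaks seen in 1 replicate had lower medians, of 2.68 in replicate 1 and 3.11 in replicate 2, than the shared regions had (3.49 and 6.28). The 34 replicate 1 peaks that stood alone had fold enrichments from 2.03 to 3.49, with 11 to 19 reads, and 0 of them reached a −log10 q of 5. The 140 that stood alone in replicate 2 ranged from 1.73 to 7.70, with 12 to 50 reads, and 29 of them, or 20.7%, reached that value. The same shares over all peaks that stood alone in the lists were not computed, so these are not read as particular to guidance genes. Besides SEMA6D the highest were at SEMA3D, with 7.06 from 36 reads, and at SEMA7A, with 6.49 from 39 reads.

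The replicates ranked the 55 shared regions in a like order, with a Spearman rho of 0.745 across regions (0.7498 across all 13238), which share libraries and are not independent. The median fold enrichment was 3.49 in replicate 1 and 6.28 in replicate 2, against 3.79 and 6.71 over all shared regions. Replicate 2 was higher at 49 of 55, with a median ratio of 1.76 and a range of 0.772 to 2.85, where the median ratio over all regions was 1.69. The median gap between the paired summits was 40 bp, and it was within 100 bp at 49 regions. By the worse of their ranks in the replicates, 3 of the 55 were in the top 10% of all shared regions and 27 in the better 50%. The guidance regions were thus spread over the whole range of strength, from place 173 to place 13045 of 13238. Their share in the better 50% (49.1%) was near that of all shared regions. In the top 10% it was lower (5.45%), on 3 regions.

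**Figure D4:**
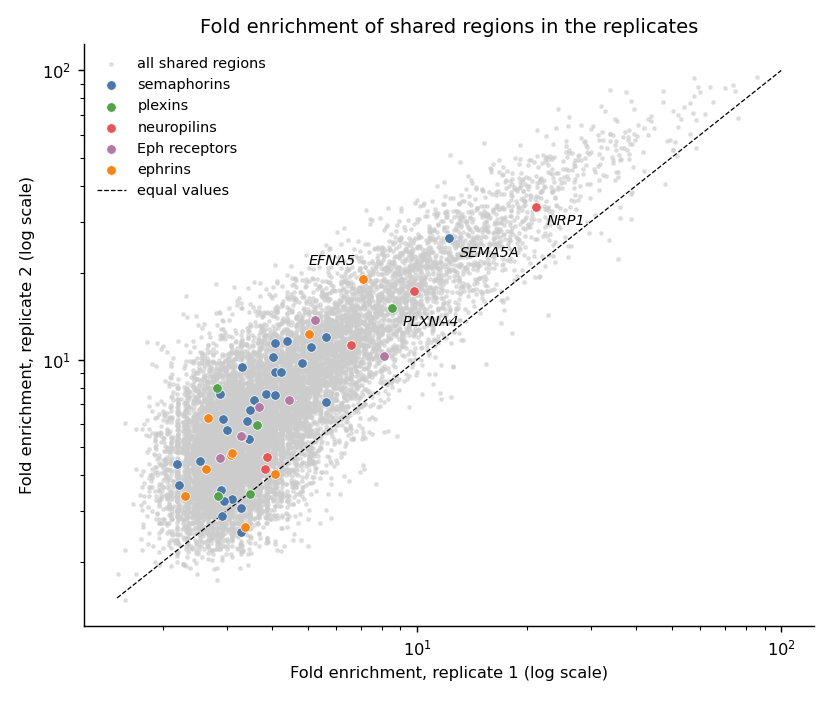
Fold enrichment in replicate 2 against replicate 1 (log scales) at all shared regions (grey) and at the 55 guidance regions, coloured by family, with the line of equal values. Of the 55, 49 lie above the line, and the NRP1 region at 21.2 and 33.7 is the highest.

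The location of the shared regions was set beside the makeup of the windows, since most of the searched length is gene body (78.5%). Introns of the guidance gene held 46 of 55 regions (83.6%, Wilson 95% interval 71.7 to 91.1%) and made up 74.3% of the window length. These regions included 16 in the first intron of the canonical transcript. A further 2 lay in exons of other transcripts, 4 upstream and 3 downstream. A start site of any transcript of the gene was within 2 kb of 7 regions (12.7%, 6.30 to 24.02%) and of 8.78% of the length, but the canonical start was within 2 kb of only 2, at EFNA1 and EFNA5. More than 20 kb separated 33 regions, or 60%, from every start site of their gene, as it did 53.1% of the length. The nearest canonical start of any coding gene was that of the guidance gene for 52 of 55 (94.5%, 85.1 to 98.1%) and for 83.3% of the length. The share of window length lay inside the interval of the regions for introns and for nearness to a start site, and below it for the nearest start. These intervals cover counting error only, and 32 of the 55 regions, at 5 genes, are not independent, so this is no test. The regions nearer to the start of another gene were 2 at SEMA3C, nearer to CD36, and that of SEMA3F, nearer to GNAT1. None of the 55 lay inside the body of another coding gene, which does not show which gene a region acts on.

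The forkhead consensus was present within 50 bp of the summit at 19 of the 55 regions, or 34.5% (23.4 to 47.7%), whereas 48.7% of all shared regions held it. In windows 500 bp downstream the shares were 20% (11 of 55) and 10.8%. The form GTAAACA alone was found at 11 of 55, or 20%, and at 20.8% of all shared regions, compared with 1.82% and 1.56% downstream. The share thus lay below that of all shared regions for the broader consensus and close to it for GTAAACA. An AP-1 match lay at 6 of 55, or 10.9% (5.10 to 21.8%), against 16.6% of all, and downstream at 9.09% and 1.93%. An extended forkhead element, read from the strongest peaks of these data in an earlier analysis, matched 0 of 55, a count that allows a share of up to 5.45% taken as 3 counts (Wilson upper bound 6.53%), and 7.28% of all shared regions, with 1.82% and 0.506% downstream. A match marks letters and not a bound site.

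**Figure D5:**
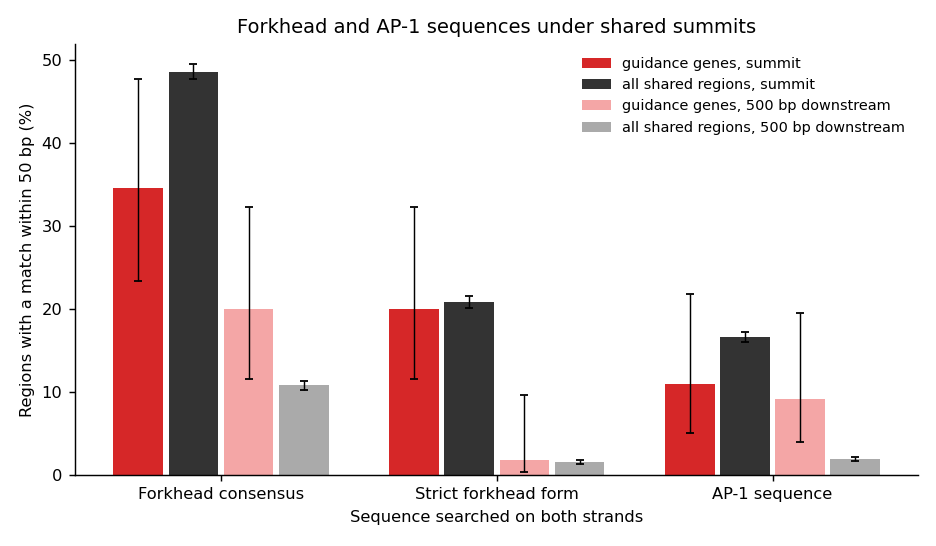
Percentage of 101-bp windows with a forkhead or AP-1 match at guidance regions (red, 55 regions) and all shared regions (black, 13238), at the summit and 500 bp downstream (paler bars). Error bars are Wilson 95% intervals. The forkhead consensus stands at 34.5% and 48.7% at the summit, and GTAAACA, the strict form, at 20% and 20.8%.

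Forkhead matches were spread unevenly over genes. SEMA5A held one at 5 of 10 regions, SEMA3C at 4 of 6 and SEMA3D at both of its 2, while EFNA5 held none at its 7. Of the AP-1 matches, 2 lay at the strongest NRP1 regions shown above, and the others at EPHB2, SEMA3A, SEMA3C and EFNB2. A single SEMA3C region, in intron 2, held both sequences. Neither was found at 31 of the 55. By rank, 14 of the better 27 regions held the forkhead consensus (51.9%) and 5 of the other 28 did (17.9%). The same split was not made over all shared regions, so it is not shown to be particular to guidance genes. Peaks of 1 replicate alone held it at 11.8% in replicate 1 and 30% in replicate 2, where all such peaks of the lists held it at 14.8% and 33.3%. The median GC content was 41.6% under the 55 summits and 39.6% under all shared summits.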

How the data were processed

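FOXC1 ChIP-seq peak lists of 2 J82 replicates were analysed. Files of the 2 input libraries were not analysed here. According to the methods and the submitters' processing notes, reads were mapped to hg19 with BWA and peaks called against input with MACS2 2.2.7.1, with bedtools also named. The paper's methods also name the IDR tool for calling reproducible peaks. The shared regions here rest on an overlap of at least 1 bp and are not that set. In the deposited lists the score was the −log10 p times 10, the deposited fold enrichment set the ChIP pileup at the summit in ratio to local background, and the −log10 p and −log10 q deposited by the authors compared the same quantities. The limit that ended the lists is not given in the sources used here.

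Entries on chromosomes 1 to 22, X and Y were kept, leaving out 42 of 22447 in replicate 1 and 43 of 41832 in replicate 2. Overlapping peaks were merged into shared regions, with a summit midway between those of the strongest peak of each replicate, and ordered by −log10 p, using whichever replicate ranked the region lower. Gene bodies and start sites came from GENCODE version 44 on GRCh37, the assembly of hg19, where the study used an earlier version. All 53 genes were found. Whole reads over a summit were solved from fold enrichment and −log10 p for 100% of peaks, and the read totals assume a genome of 2.7 Gb and a fragment length equal to the smallest peak width. Motifs were searched in 101 bp of reference sequence. Steps were run in Python 3.11.15 with numpy 2.4.6, scipy 1.17.1, pandas 2.3.3 and pysam 0.24.0, and checked on simulated data.

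No test was run, since 2 lists of 1 condition allow none, and members are set beside all protein-coding genes. Every gene was counted. Values were given by rule for the 20 genes with most shared regions, for the 15 best regions and for the best of each family class. Single-replicate peaks named for their height, the remaining genes and weaker regions were chosen after their values were seen. The genes, the lists and the motifs were chosen with earlier results of these data known. Alternatives were the window, the overlap rule, stricter peaks, list length, either replicate alone, the motif window and the start sites used.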

Additional observations from a re-analysis of the deposited data

How the results depend on the processing

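Counts moved with stricter peaks and with the use of 1 list. At a −log10 q of 5 in both replicates, 12 genes and 25 regions remained, and 25 of 25 replicate 1 peaks (100%) were overlapped. Over the whole lists, 6906 replicate 1 peaks reached this limit and 6726 shared regions did so in both replicates, so nearly full overlap is usual there. At a fold enrichment of 5 there were 9 genes (13.5% of all genes passed) and 12 regions (21.8%, against 29.9% of all shared regions). With 1 replicate left out, genes with a peak ranged from 27 to 43, peaks from 89 to 195 and the median density from 0.00256 to 0.0177 per kb (0 when both are needed). A window of 50 kb gave 32 genes, with 46.6% of all genes passing, and a median density of 0.0032 per kb. The forkhead share was 21.8% within 25 bp (34.6% of all shared regions) and 20% for GTAAACA (20.8%), and 3.64% of regions lay near the canonical start alone. Of 51 values tried, 14 moved past the limits set and 37 did not, the 27 and 32 genes above among them. The limit was 1.5 times for counts and for the ratio, which also had to stay on the same side of 1. For shares it was the 95% interval, and any change counted as a move for a median density. No paired analysis was possible because no input list was analysed and no test was made, so the shared replicate numbers of ChIP and input could not be used. Peaks that stood alone rest on 11 to 19 reads in replicate 1 and 12 to 50 in replicate 2. With 2 replicates an SD is itself imprecise, and the cause of the higher enrichment in replicate 2 was not tested.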

Other observations

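Effectors of these receptors and other guidance families were counted by the same rule, from lists chosen with earlier results of these data known. Of 38 effectors of semaphorin and Eph signaling, such as the MICAL enzymes and the collapsin response mediators, 18 had a shared FOXC1 region (47.4%), 46 regions in all or 0.536 per 100 kb. Over all protein-coding genes the density was 0.529, near that of the effectors. In the length class of their median window (181 kb), 48.9% of all genes had a shared region, also near their share. Effector windows ran from 48.7 to 1298 kb, so this background is not matched gene by gene. ANKS1B, an adaptor of Eph receptors, had 7 in a window of 1298 kb, and MICAL2, an oxidase that acts on actin, had 6 in 305 kb from 12 and 15 peaks. The MICAL2 density of 1.97 per 100 kb was reached by 3.85% of genes in its length class.

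Of 23 genes of the netrin, Slit, Robo, repulsive guidance molecule and related families, 14 had a shared region (60.9%), 36 regions in all or 0.386 per 100 kb. These genes were longer, with a median window of 228 kb, a length class in which 69.7% of all genes had a shared region. Since their windows ran from 42.8 to 1783 kb, this background is not matched gene by gene. ROBO1 and ROBO2, receptors of Slit ligands, had 7 and 5 shared regions in windows of 1211 and 1783 kb. NTN4, a secreted netrin of basement membranes, had 5 in 173 kb, from 5 replicate 1 peaks and 9 replicate 2 peaks, and its density of 2.88 per 100 kb was reached by 1.70% of genes in its class. SLIT2 and SLIT3, secreted repellents, had 3 each.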
